A study of Mus musculus with 24 samples.

Results

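The response of mouse lung adenocarcinoma cells to knockdown of Chchd10 was compared between cells with different forms of the translation factor eIF2α. The factor was wild type in S/S cells, while in A/A cells alanine replaced its regulatory serine. Both genotypes were given siControl, the control siRNA, or siChchd10, directed at Chchd10, which made 4 groups of 4 libraries each. These 16 of the 24 libraries of the study were chosen by their labels. The gene lists used below were chosen with earlier results of these data known. All were cultured tumour cells sorted as GFP-positive and CD45-negative, so what the groups share is the sort, the culture and the transfection. The labels name no driver mutation and no number of animals, lines or clones per genotype. A difference between the genotypes and a difference between the cell lines that carry them therefore cannot be told apart. Whether the 4 libraries of a group are separate cultures is not in the labels, so p-values measure the spread between these libraries only.

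When stress kinases phosphorylate eIF2α, translation slows in general while the transcription factor ATF4 is translated more, and ATF4 switches on genes for amino acid supply and tRNA charging. This route is the integrated stress response, and the alanine form of eIF2α cannot enter it. CHCHD10 is a small protein of the mitochondrial intermembrane space that is linked to the cristae, the folds that hold the respiratory chain. Lung adenocarcinoma cells can move away from the alveolar type 2 state in which they often begin, towards transitional, gut-like, liver-like and mesenchymal states.

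For each gene the siChchd10 effect, as the log2 fold change from siControl to siChchd10, was estimated in S/S and in A/A cells. The interaction is the A/A effect minus the S/S effect, so a positive interaction means a larger rise or a smaller fall in A/A cells. A gene passed when its p from the edgeR quasi-likelihood test, adjusted by the Benjamini-Hochberg method over all 18138 genes tested, was under 0.05. Levels are counts per 1000000 counts of a library (CPM), given for replicates 1 to 4 of a group in that order.

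The libraries held 42863650 to 75409451 counts each. Markers of the cell types that the sort should remove were near 0: leukocyte markers summed to 2.92 to 5.13 CPM, fibroblast markers to 2.58 to 7.79 CPM and endothelial markers to 10.3 to 13.9 CPM per library. The epithelial genes Cdh1, Krt8 and Krt18 were abundant in every library, while Sftpc, the defining surfactant gene of alveolar type 2 cells, was at 0.107 CPM or below outside A/A siChchd10. One library stood apart. Transcripts of 8 genes with at least 20 CPM in each S/S library and at most 0.5% of that in each A/A siChchd10 library (among them Gatm, Hs6st2, Lncenc1, Gxylt2, Flnc, Sox12 and Serpine2) had a median of 6.42% of their S/S siControl level in A/A siControl 1. The same median was 0.843% in A/A siControl 2, 0.053% in A/A siControl 3 and 0.121% in A/A siControl 4. Whether these counts came from A/A cells or from S/S material was not tested, which bears on the A/A siControl levels and A/A falls of genes such as Flnc, Basp1, Esrp1 and Hdx. Some results are therefore given also without A/A siControl 1. Others, such as the interactions of Bcat1, Layn, Hp and Epcam, moved somewhat without it and are given with all 16 libraries only.

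The siRNA lowered its target in both genotypes. Chchd10 (chr10:75933130-75937750 on mm10) measured 40.6, 45.5, 38.1 and 46.0 CPM in S/S siControl, against 6.69, 5.34, 6.33 and 6.82 CPM in S/S siChchd10. It measured 10.2, 9.53, 7.97 and 7.99 CPM in A/A siControl and 1.37, 1.75, 2.04 and 2.15 CPM in A/A siChchd10, so knockdown and control libraries were far apart in both genotypes. The siRNA left 14.8% of the level in S/S and 20.7% in A/A, and the interaction of Chchd10 was 0.49 (SE 0.161, edgeR adjusted p = 0.0205). That call was lost without A/A siChchd10 4, where the interaction was 0.39 (adjusted p = 0.0855). Without A/A siControl 1 the interaction of Chchd10 was 0.57 (adjusted p = 0.00497). Atf4 mRNA fell in both genotypes, by 0.21 in S/S and by 0.38 in A/A cells on the log2 scale. Its interaction of -0.17 (SE 0.0783, adjusted p = 0.0932) did not pass, and was -0.095 (adjusted p = 0.319) without A/A siControl 1. Eif2s1, which encodes eIF2α itself, measured 227, 209, 208 and 219 CPM in S/S siControl, against 179.8, 197, 214 and 209 CPM in S/S siChchd10. The A/A values were 200.3, 187, 197 and 198 CPM with siControl against 217, 228, 221 and 223 CPM with siChchd10. All 4 A/A siChchd10 libraries lay above all 4 A/A siControl libraries, whereas the S/S groups overlapped (S/S effect -0.11, A/A effect 0.18). The interaction of Eif2s1 was 0.29 (SE 0.0641, adjusted p = 0.000651). Without S/S siChchd10 3 or 4 its S/S fall passed as well, which made its movement opposite.

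The siChchd10 effect differed between the genotypes in 6461 genes, 35.6% of those tested, with 3026 (16.7%) higher and 3435 (18.9%) lower in A/A than in S/S, and at an unadjusted p under 0.05 it did in 8013 (44.2%). In S/S cells the siRNA changed 5076 genes (28%), of which 2720 (15%) rose and 2356 (13%) fell. In A/A cells it changed 9748 genes (53.7%), of which 4806 (26.5%) rose and 4942 (27.2%) fell. Over the 12339 genes with a mean of at least 1 CPM in each genotype, the median size of the effect was 0.107 on the log2 scale in S/S and 0.20 in A/A. Across those genes the effects had a Pearson correlation of 0.463, given as a description because genes are not independent. Most differences were small: 1102 of the 6461 genes had an interaction of at least 2-fold, 336 higher and 766 lower. With A/A siControl 1 left out 6401 genes passed, 6048 of the 6461 among them, and none of these 6048 changed sign.

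The 6461 genes fell into 6 kinds. Opposite movement, with both effects past the threshold and of unlike sign, was seen in 666 genes (3.67% of genes tested): 396 (2.18%) rose in S/S and fell in A/A, and 270 (1.49%) fell in S/S and rose in A/A. In 828 genes (4.57%) only the S/S effect passed, 470 of them up (2.59%) and 358 down (1.97%). In 3816 genes (21.0%) only the A/A effect passed, 1834 up (10.1%) and 1982 down (10.9%). Both effects passed with the same sign in the rest of the sorted genes, with the larger change in S/S for 188 (1.04%) and in A/A for 762 (4.2%). The 188 were 112 rises (0.617%) and 76 falls (0.419%), and the 762 were 387 rises (2.13%) and 375 falls (2.07%). The other 201 genes (1.11%) passed the interaction but neither single effect. An effect past the threshold in 1 genotype alone often came without an interaction past it, which does not show equal effects. Of 1605 genes that passed in S/S and not in A/A, 828 passed the interaction. Of 6277 that passed in A/A and not in S/S, 3816 did. A further 1855 genes passed in both genotypes with no interaction past the threshold.

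**Figure D1:**
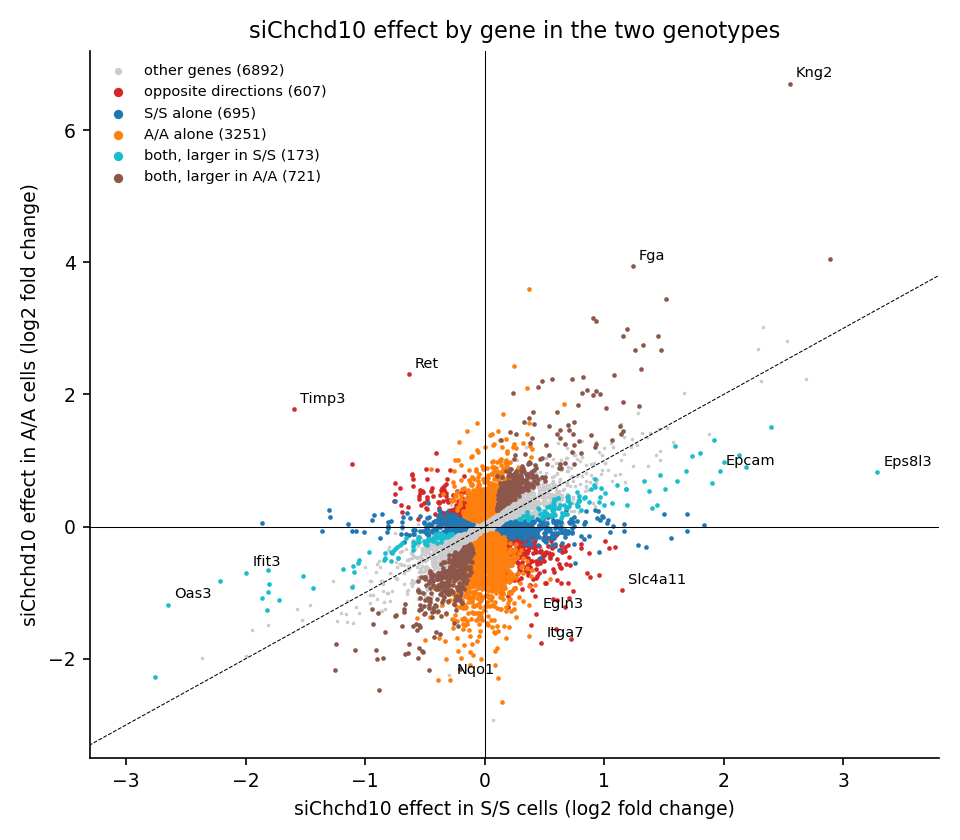
Each point is 1 of the 12339 genes with at least 1 CPM in each genotype, with its siChchd10 effect (log2 fold change) in S/S cells on the horizontal axis and in A/A cells on the vertical axis, coloured by kind; the dashed line marks equal effects. Genes of opposite movement fill the upper left and lower right corners, Slc4a11, Egln3 and Itga7 on one side and Timp3 and Ret on the other, and the A/A axis reaches farther than the S/S axis.

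For each kind, the leading genes given below are among those with the largest interactions in the 12339 genes with at least 1 CPM in each genotype, predicted genes and clones aside. Of these, among the genes that rose in S/S and fell in A/A, the first 4 were Vwa7, Itga7, Mroh3 and Slc4a11. Itga7 (chr10:128933421-128958286), an integrin chain that binds laminin, measured 14.1, 17.8, 15.6 and 16 CPM in S/S siControl, against 23.1, 22.6, 21.2 and 21.2 CPM in S/S siChchd10. Itga7 in A/A cells was at 27.1, 28.5, 31.1 and 30.9 CPM with siControl against 8.37, 7.45, 9.92 and 8.95 CPM with siChchd10. All S/S siChchd10 libraries were above the S/S controls and all A/A siChchd10 libraries were below the A/A controls. The Itga7 effect was 0.47 in S/S and -1.76 in A/A, an interaction of -2.23 (SE 0.103, edgeR adjusted p = 2.13e-14). Slc4a11 (chr2:130684107-130697519), a membrane transporter and a member of the transitional alveolar list described below, went the same way. It stood at 18.9, 24.9, 21.9 and 23.6 CPM in S/S siControl, 46.9, 50.8, 49.96 and 50.9 CPM in S/S siChchd10, 31.1, 37.4, 37.8 and 43.1 CPM in A/A siControl and 20.7, 18.2, 19.0 and 18.8 CPM in A/A siChchd10. The Slc4a11 groups did not overlap within either genotype, and the effects were 1.15 and -0.96 (interaction -2.11, SE 0.118, adjusted p = 5.51e-11). Vwa7 (0.72 in S/S, -1.70 in A/A) and Mroh3 (0.60 and -1.55) were less abundant, at 12.5 CPM or below in every library.

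Several secreted and signalling genes moved in the same opposite way. Egln3 (chr12:54178981-54203874), an oxygen-sensing hydroxylase induced in hypoxia, measured 61.1, 50.3, 61.3 and 60.5 CPM in S/S siControl, against 89.8, 82.7, 67.4 and 74.3 CPM in S/S siChchd10. The A/A levels were 50.5, 49.0, 49.99 and 41.8 CPM and 20, 16.1, 20.7 and 19.5 CPM, so the knockdown libraries were all above the controls in S/S and all below them in A/A. The Egln3 interaction was -1.76 (SE 0.142, adjusted p = 2.18e-07). Ccl9, a chemokine gene, measured 108, 101, 83.6 and 99.1 CPM and 149.7, 142, 181 and 182 CPM in S/S, and 35.0, 30.4, 29.2 and 30.8 CPM and 14.9, 16.2, 16.6 and 16.3 CPM in A/A cells, with no overlap in either genotype (effects 0.74 and -0.97). On the log2 scale the growth factor gene Csf3 rose by 0.60 and fell by 0.49 and the collagen gene Col1a1 rose by 0.61 and fell by 1.12 in S/S and A/A cells. Perp, a p53 target of cell junctions, rose by 0.70 and fell by 0.46. Egfr, a growth factor receptor, rose by 0.36 from a mean of 53.9 to 69.3 CPM and fell by 0.58 from 9.87 to 6.67 CPM. Lgr4, a receptor that strengthens Wnt signals, rose by 0.19 and fell by 0.80.

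The reverse movement, down in S/S and up in A/A, was led, in the same set, by Timp3, Ret, Bex4 and Nipal1. Timp3 (chr10:86300412-86349505), an inhibitor of matrix metalloproteases, measured 7.16, 2.80, 2.2 and 2.48 CPM in S/S siControl, against 1.00, 1.34, 1.21 and 1.17 CPM in S/S siChchd10. Timp3 in A/A cells was at 4.18, 4.82, 3.6 and 4.16 CPM with siControl against 15.4, 13.5, 14.9 and 13.9 CPM with siChchd10. S/S siControl 1 was well above the other libraries of its group, and the groups still did not overlap. The Timp3 effects were -1.60 (SE 0.355) and 1.78 (SE 0.263), an interaction of 3.38 (adjusted p = 5.66e-05). Ret (chr6:118151748-118197744), a receptor tyrosine kinase, went from 1.61, 1.69, 1.52 and 1.39 to 0.875, 1.22, 0.994 and 0.897 CPM in S/S and from 0.775, 0.652, 0.572 and 0.643 to 3.10, 4.29, 2.83 and 2.97 CPM in A/A. It was thus higher in S/S than in A/A with siControl and lower in S/S than in A/A with siChchd10, in all libraries, with an interaction of 2.95 (SE 0.239, adjusted p = 2.44e-10). Nipal1, a magnesium transporter, had effects of -0.41 and 1.12, and Bex4 of -1.11 and 0.95. Ccne1, the cyclin that starts DNA replication, measured 16.4, 15.4, 17.7 and 18.8 CPM and 9.90, 12.6, 12.3 and 12.8 CPM in S/S cells. Its A/A values were 18, 16.5, 15.1 and 15.9 CPM with siControl against 23.2, 23.8, 24.2 and 23.1 CPM with siChchd10. The siControl groups of the genotypes overlapped in Ccne1, and siChchd10 moved them apart by -0.52 and 0.52 (adjusted p = 7.62e-09). With A/A siControl 1 left out, 390 of the 396 genes up in S/S and down in A/A and all 270 of the reverse kind passed the interaction, and 353 and 259 of them stayed of the same kind.

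**Figure D2:**
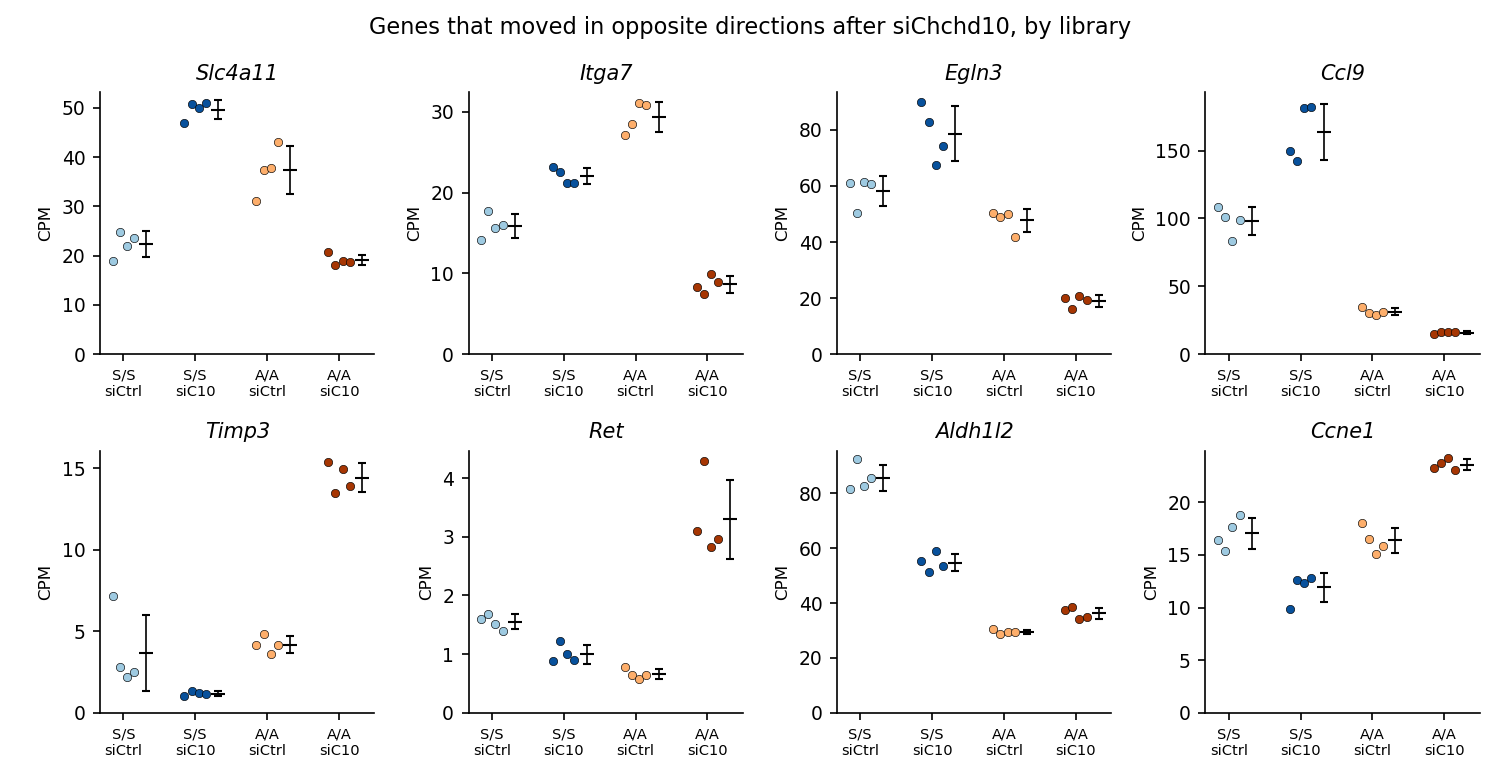
Level of 8 genes in each library (CPM, linear axis from 0), with points for replicates 1 to 4 and the mean ± SD beside each group; siC10 stands for siChchd10. Slc4a11, Itga7, Egln3 and Ccl9 rose in S/S and fell in A/A cells, and Timp3, Ret, Aldh1l2 and Ccne1 fell in S/S and rose in A/A cells.

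The leading rises in S/S cells alone were those of 4 genes. Fam83e rose by 1.83 (A/A 0.022), Bcas1 by 1.69 (A/A -0.065), Kcne3, a potassium channel subunit of gut and airway epithelium, by 1.35 (A/A -0.31) and Mettl7b by 1.28 (A/A -0.28). Without A/A siChchd10 3, Mettl7b passed as a fall in A/A cells too. Kcne3 measured 0.638, 1.31, 1.35 and 1.09 CPM in S/S siControl, against 2.75, 2.87, 3.06 and 2.69 CPM in S/S siChchd10, against 0.889, 1.26, 1.16 and 1.37 CPM and 0.878, 1.05, 0.915 and 0.920 CPM in A/A cells. The A/A groups overlapped, and every S/S siChchd10 library exceeded every other Kcne3 library. Lama3, a laminin chain of epithelial basement membrane, rose from 1.56, 1.87, 1.58 and 2.03 CPM to 13.7, 14.6, 15 and 14.9 CPM in S/S cells, an effect of 3.04 (SE 0.125). In A/A cells Lama3 stayed at or below 0.407 CPM in every library, so it does not count among the genes expressed in both genotypes. The Lama3 interaction was -2.84 (adjusted p = 3.52e-07) and -2.74 without A/A siControl 1. Falls in S/S alone were led by the imprinted RNA H19 (-1.87, A/A 0.046), Arhgap31 (-1.30, A/A 0.25), the nucleotidase gene Entpd3 (-1.29, A/A 0.14) and the ubiquitin ligase gene Hecw1 (-1.36, A/A -0.062). Arhgap31 passed as a rise in A/A cells without S/S siControl 2, A/A siControl 1 or A/A siChchd10 4.

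Genes that moved in A/A cells alone were the most numerous kind. Hsd17b13, a lipid droplet protein of liver, measured 0.473, 0.356, 0.735 and 0.257 CPM in A/A siControl and 2.37, 2.66, 2.62 and 2.25 CPM in A/A siChchd10. Hsd17b13 in S/S cells was at 1.04, 1.05, 0.817 and 0.939 CPM with siControl against 1.31, 1.40, 0.916 and 0.939 CPM with siChchd10, overlapping groups. The effect was 2.43 in A/A and 0.25 in S/S (interaction 2.18, SE 0.299, adjusted p = 1.95e-06). Ckmt1, a mitochondrial creatine kinase, rose by 2.09 (S/S 0.35). Mmp13, a collagenase, rose by 1.45 (S/S -0.15), and without A/A siChchd10 2 its S/S fall passed too. Among the falls, Nqo1, a quinone reductase and NRF2 target, measured 14.8, 16.3, 17.5 and 16.1 CPM in A/A siControl and 2.51, 3.01, 3.32 and 3.89 CPM in A/A siChchd10. Its S/S values were 3.38, 4.15, 2.62 and 3.75 CPM and 3.35, 2.87, 2.85 and 2.32 CPM, so siChchd10 brought A/A cells to the S/S range. The Nqo1 effects were -2.33 in A/A and -0.29 in S/S (interaction -2.04, adjusted p = 3.70e-09), and without S/S siControl 3 the S/S fall passed too. Rgs11, a regulator of G protein signalling, fell by 2.09 in A/A and had an effect of 0.085 in S/S. Basp1 and Flnc, the other leading falls of this kind, are among the results that A/A siControl 1 moved and are given with them.

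Same-way movement that was larger in S/S cells was seen in 6 epithelial junction genes (3 were larger in A/A) and 14 interferon genes (1 was larger in A/A, Stat2), of the lists described below. Epcam, an adhesion molecule of epithelial surfaces, measured 9.45, 8.76, 8.15 and 9.35 CPM in S/S siControl, against 33.4, 33.4, 35.5 and 36.8 CPM in S/S siChchd10. The A/A levels were 1.82, 1.36, 1.43 and 1.14 CPM and 2.14, 3.32, 2.15 and 2.67 CPM, so it rose in both from unlike levels (1.96 and 0.84, interaction -1.12, SE 0.165, adjusted p = 6.33e-06). Lgals4, a galectin of gut epithelium, had near siControl levels in the genotypes, at 24.5, 21.1, 23.2 and 20.8 CPM in S/S and 36.9, 34.6, 34.9 and 33.6 CPM in A/A. It reached 101, 96.2, 98.5 and 95.4 CPM in S/S siChchd10 and 68.6, 72.2, 78.2 and 78.8 CPM in A/A siChchd10, effects of 2.12 and 1.09 with no overlap. Eps8l3 (3.29 and 0.82), Glod5 (2.19 and 0.90) and Fbp2, a gluconeogenic phosphatase (1.90 and 0.66), were the other leading rises of this kind. By group means Fbp2 went from 0.527 to 2.01 CPM in S/S and from 27.5 to 43.6 CPM in A/A. Eps8l3 went from 0.248 to 2.46 CPM in S/S and from 2.76 to 4.86 CPM in A/A. For Fbp2 and Eps8l3 the larger fold in S/S thus began from a much lower level. Falls larger in S/S were led by the antiviral genes Oas3, Xaf1, Ifit3 and Ifit3b.

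Of the 387 same-way rises that were larger in A/A cells, 10 were of the liver-type plasma protein list described below. Fga, a fibrinogen chain, measured 10.1, 8.11, 8.72 and 9.62 CPM and 24.8, 22.6, 16.7 and 21.8 CPM in S/S siControl and siChchd10. It measured 1.10, 0.810, 0.756 and 0.664 CPM and 11.5, 16.8, 12.6 and 10.9 CPM in the same A/A groups, so it started lower in A/A and rose further (1.2 and 3.94, interaction 2.71, SE 0.258, adjusted p = 7.02e-07). Kng2, a kininogen, rose by 2.55 and 6.70 (interaction 4.15), from 0.15 CPM or below in every A/A siControl library, and the interaction was 4.86 without A/A siControl 4. Hp, haptoglobin, rose by 0.93 and 3.11, and Cyp2c70, a bile acid hydroxylase, by 0.91 and 3.15. Larger falls in A/A were those of Ripor2 (-0.21 and -2.16), the cartilage proteoglycan gene Acan (-0.47 and -2.18), Layn, a hyaluronan receptor (-0.89 and -2.48), and Osbp2 (-0.56 and -1.99).

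Gene lists were described by how many of their tested members passed the interaction, to be read against 16.7% higher and 18.9% lower among all genes, and by their median interaction against -0.015 for all genes. Passing was more common among genes with at least 1 CPM in each genotype, 5590 of 12339 in either direction. Many lists hold only such genes, and for them the shares among all genes are a low reference. Fewer expressing cells and less RNA per cell cannot be told apart in these bulk samples.

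**Figure D3:**
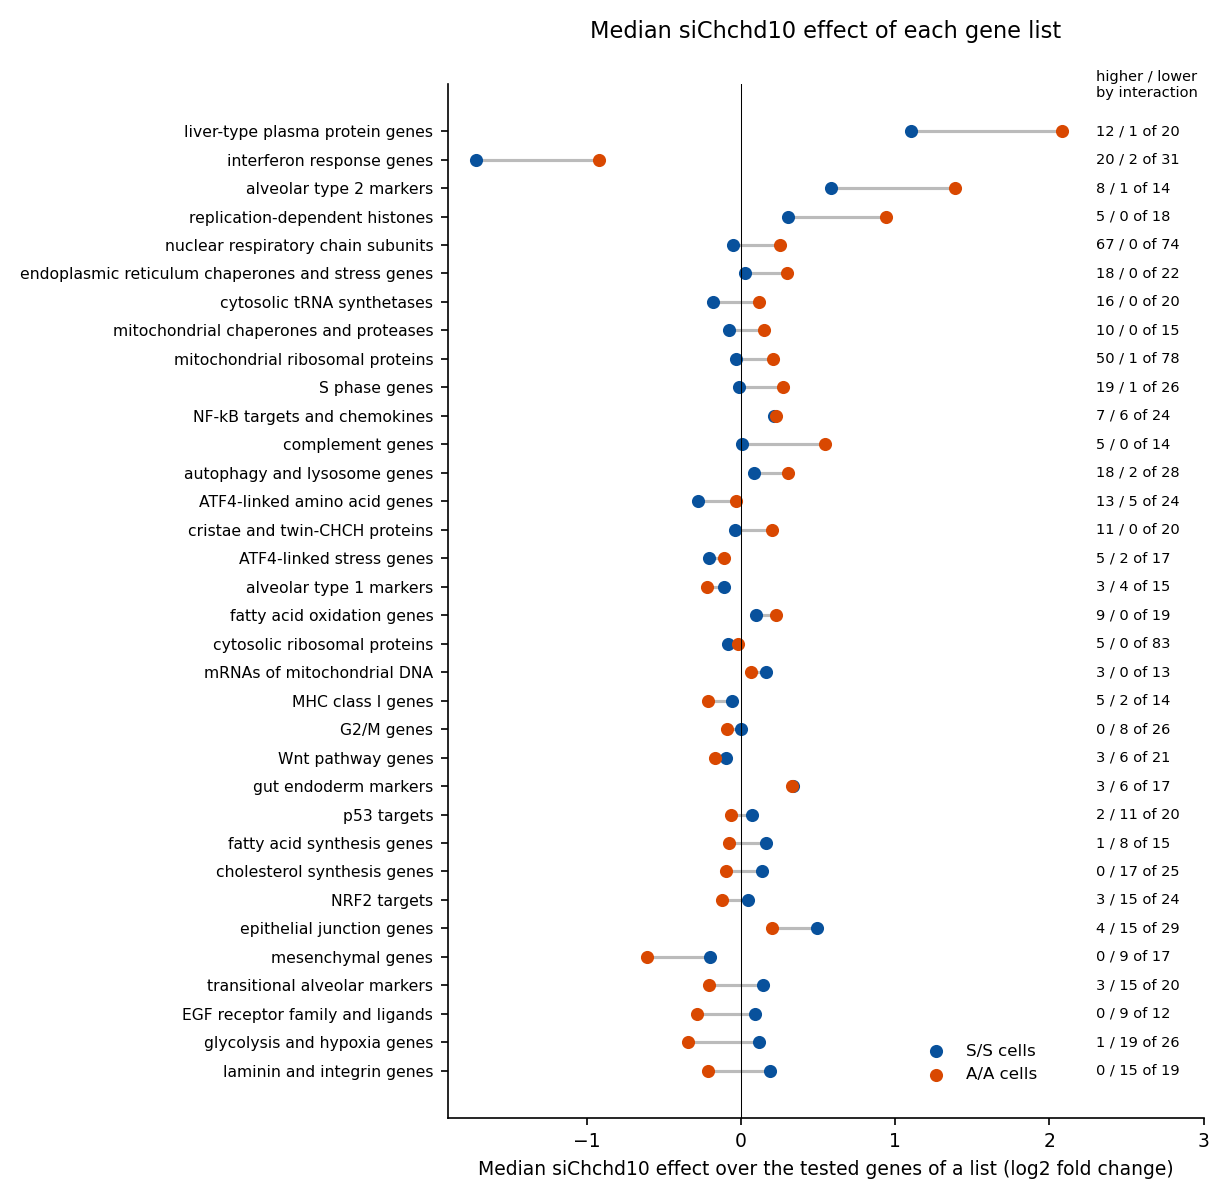
Median siChchd10 effect (log2 fold change) over the tested members of 34 gene lists, in S/S cells (blue) and A/A cells (orange), sorted by the median interaction; at the right, the number of members with a higher and a lower interaction past the threshold, of those tested. Respiratory chain, tRNA synthetase and chaperone lists sit to the right of 0 in A/A and near or left of 0 in S/S, and the glycolysis and laminin lists the other way round.

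Genes of tRNA charging and amino acid supply were counted in each genotype: 14 of 20 tRNA synthetases and 17 of 24 amino acid genes fell in S/S, and 3 and 9 fell in A/A. Of the 20 cytosolic tRNA synthetases, which load amino acids onto tRNA, 16 had a higher interaction and none a lower one, and 7 of them moved in opposite directions (list medians -0.18 in S/S and 0.12 in A/A). Gars, which loads glycine, measured 487, 481, 448 and 489 CPM and 377, 374, 431 and 412 CPM in S/S, and 294, 264, 272 and 268 CPM and 328, 345, 342 and 307 CPM in A/A, with no overlap in either genotype. Its effects were -0.26 and 0.27 (interaction 0.52, SE 0.0697, adjusted p = 1.18e-06). Wars, which loads tryptophan and is also induced by interferon, rose by 0.91 in A/A alone (S/S 0.077). Of the 24 amino acid genes linked to ATF4, 13 had a higher and 5 a lower interaction. Aldh1l2, a mitochondrial folate enzyme, measured 81.8, 92.4, 82.6 and 85.7 CPM and 55.3, 51.4, 58.9 and 53.4 CPM in S/S cells. Its A/A values were 30.4, 28.7, 29.3 and 29.6 CPM with siControl against 37.4, 38.5, 34.1 and 35.0 CPM with siChchd10. The fall of 0.65 in S/S and the rise of 0.30 in A/A gave the highest interaction of that list, 0.94 (SE 0.0700, adjusted p = 4.89e-11). The serine synthesis genes Psat1 (-0.22 and 0.27) and Psph (-0.30 and 0.23) moved in opposite directions too. Asns, which makes asparagine (-0.48 and -0.033), and Mthfd2, a folate enzyme (-0.45 and 0.023), fell in S/S alone, and Bcat1, which breaks down branched amino acids, fell more in S/S (-0.97 and -0.39).

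Members of the amino acid list with a lower interaction were all transporters. The neutral amino acid carrier Slc1a5 (-0.17 and -0.66), Slc38a2 (0.011 and -0.23), Slc1a4 (-0.081 and -0.29) and the arginine carrier Slc7a3 (0.047 and -0.84) fell in A/A alone, and the cystine carrier Slc7a11 fell more in A/A (-0.56 and -0.98). The call for Slc7a3 was lost without S/S siControl 1, S/S siControl 4 or S/S siChchd10 1, where its interaction was -0.78, -0.73 and -0.78, and that for Slc1a4 without S/S siControl 1, A/A siControl 3 or A/A siChchd10 4. Of 17 stress genes linked to ATF4, 5 were higher and 2 lower: Atf5 had effects of -0.17 and 0.28, Nupr1 of -0.50 and -0.072, Ddit4 of -0.067 and -0.45, and Cebpb of 0.18 and -0.39. The S/S rise of Cebpb did not pass without S/S siControl 1, S/S siControl 3, S/S siChchd10 1 or S/S siChchd10 4. Of 22 chaperone and stress genes of the endoplasmic reticulum, 18 had a higher and none a lower interaction, 14 of them by a rise in A/A alone. Hspa5, the main chaperone there, measured 802, 662, 765 and 778 CPM in S/S siControl, against 677, 711, 769.5 and 742 CPM in S/S siChchd10, overlapping groups. Its A/A libraries did not overlap, with an effect of 0.43 (S/S -0.053, interaction 0.48, adjusted p = 6.91e-06).

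Promoters of these genes are shown because the C/EBP-ATF composite element, which ATF4 is known to bind, was looked for in them. The promoters are RefSeq windows of GRCm38.p6, from 250 bases before to 50 bases after the gene start, written 5′ to 3′ on the gene's strand. The letters searched were TGATGNAA on either strand, shown in capitals. Gars lies at chr6:55037751-55038050 (plus strand), Tars, which loads threonine, at chr15:11399609-11399908 (minus strand) and Asns at chr6:7693160-7693459 (minus strand).
Gars: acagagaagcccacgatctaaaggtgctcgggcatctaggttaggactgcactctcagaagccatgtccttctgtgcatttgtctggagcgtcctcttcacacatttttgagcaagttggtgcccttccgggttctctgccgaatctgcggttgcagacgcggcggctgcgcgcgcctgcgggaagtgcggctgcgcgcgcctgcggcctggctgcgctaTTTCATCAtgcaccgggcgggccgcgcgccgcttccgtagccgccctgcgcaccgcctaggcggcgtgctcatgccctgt
Tars: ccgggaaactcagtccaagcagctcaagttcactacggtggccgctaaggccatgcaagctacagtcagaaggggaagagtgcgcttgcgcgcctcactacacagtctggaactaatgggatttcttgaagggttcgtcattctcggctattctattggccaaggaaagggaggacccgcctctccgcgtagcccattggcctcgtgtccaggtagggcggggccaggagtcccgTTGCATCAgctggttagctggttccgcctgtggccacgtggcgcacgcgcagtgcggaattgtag
Asns: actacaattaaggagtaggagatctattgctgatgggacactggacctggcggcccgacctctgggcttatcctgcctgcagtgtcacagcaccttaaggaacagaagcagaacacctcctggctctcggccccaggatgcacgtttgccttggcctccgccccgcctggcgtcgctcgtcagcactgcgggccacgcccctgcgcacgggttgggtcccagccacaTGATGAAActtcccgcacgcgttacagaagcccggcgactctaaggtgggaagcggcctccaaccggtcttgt
Each of these windows held the letters once, starting 30 bases before the gene start in Gars, 15 in Tars and 23 in Asns. Promoters were matched for 13 of the 20 tRNA synthetases. Of the 10 of them that passed the interaction, 5 held the letters (50%), and of all 13 the same 5 did (38.5%). In the amino acid list 5 of 19 promoters held them (26.3%), and 3 of the 14 of those that passed (21.4%), against 324 of 12978 promoters of genes tested (2.5%) and 4.06% of all 27025 promoters in the table. The match of letters is a description and not evidence of binding.

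Nuclear genes of the respiratory chain rose in A/A cells, 63 of 74 subunits, whereas in S/S cells 1 rose and 5 fell. Of the 74, 67 had a higher and none a lower interaction, with list medians of -0.052 in S/S, 0.25 in A/A and 0.31 for the interaction. In 57 of these 67 the rise passed in A/A alone, and in 4 (Atp5a1, Atp5b, Ndufv1 and Uqcrq) the S/S fall passed too. Of these 4, Atp5a1 stayed of that kind whichever library was left out, while Atp5b, Ndufv1 and Uqcrq changed kind in 6, 4 and 5 of the 16 fits without 1 library. By complex, 31 of 36 subunits of complex I had a higher interaction, all 4 of complex II, all 9 of complex III, all 10 of complex IV and 13 of 15 of the ATP synthase. Ndufa5, a subunit of complex I, measured 22.5, 19.9, 19.7 and 22.4 CPM in S/S siControl, against 17.5, 19.9, 22 and 21.6 CPM in S/S siChchd10. It measured 18.7, 16.8, 17.2 and 17.4 CPM in A/A siControl and 23.4, 26.7, 25.6 and 26.5 CPM in A/A siChchd10. The S/S groups overlapped and the A/A groups did not, and the interaction of Ndufa5 was 0.61 (SE 0.0932, adjusted p = 1.01e-05). Uqcrq, a subunit of complex III, fell by 0.23 in S/S and rose by 0.19 in A/A. The other members were Ndufv3, Atp5g2, Atp5d, Ndufc2, Ndufb2, Ndufs1 and Ndufb3, which did not pass. Without A/A siControl 1 the count was 70 higher and none lower.

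Short transcripts in general had a higher interaction than long ones. The median was 0.074 over the 2786 genes of the shortest transcripts and -0.052 over the 2780 of the longest, and 65 of the 73 respiratory chain genes with a length were among those 2786. Cytosolic ribosomal proteins were as short (74 of 79 among them), and 5 of 83 of them had a higher interaction and none a lower one, with a median of 0.047. The part of transcript length in the respiratory chain result was not tested.

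The other mitochondrial lists differed among themselves. Of 78 mitochondrial ribosomal proteins 50 were higher and 1, Mrps10, lower, with Mrps27 (-0.14 and 0.37) and Mrpl40 (-0.11 and 0.40) the highest. The S/S fall of Mrps27 passed without S/S siControl 2. Of 20 cristae and twin-CHCH proteins 11 were higher and none lower, Chchd10 itself among them. Chchd2, the closest relative of Chchd10, rose in A/A alone (0.0019 and 0.46), as did Apoo, a subunit of the complex that shapes cristae (-0.11 and 0.36). Without S/S siChchd10 3 the S/S fall of Apoo passed. Of 15 mitochondrial chaperones and proteases 10 were higher and none lower. Hspa9, the chaperone that pulls proteins into the matrix, fell by 0.35 in S/S and rose by 0.15 in A/A (adjusted p = 3.26e-07). Of the 13 mRNAs of mitochondrial DNA only ND1, ND2 and ND6 passed, all higher. The median interaction of those 13 was -0.0018. ND2 was lost without A/A siChchd10 2 (interaction 0.19), ND6 without S/S siChchd10 1 (0.34) and ND1 in 6 of the 16 fits without 1 library.

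Glycolysis and hypoxia genes went the other way. Of 26 genes 19 had a lower interaction and 1, Ndrg1, a higher one, with list medians of 0.12 in S/S, -0.34 in A/A and -0.47 for the interaction. Without A/A siControl 1 the counts were 16 lower and 1 higher. Opposite movement was seen in 7, including Egln3, the mitophagy receptor Bnip3 (0.46 and -0.39), Pgk1 (0.24 and -0.41), the glucose transporter Slc2a1 (0.36 and -0.14), Pfkl (0.22 and -0.25) and the lactate dehydrogenase Ldha (0.22 and -0.18). Pgk1, an enzyme that makes ATP in glycolysis, measured 741, 642, 674 and 743 CPM and 879, 814, 780.5 and 836 CPM in S/S siControl and siChchd10. In A/A it measured 826, 795, 834 and 745 CPM and 592, 583, 632 and 601 CPM. The A/A knockdown libraries lay below the A/A controls, and the S/S knockdown libraries lay above the S/S controls. Falls in A/A alone were seen in 10, including the phosphofructokinase Pfkp (-0.046 and -1.15), the carbonic anhydrase Car9 (0.024 and -0.77) and Adm, a vasodilator peptide (-0.42 and -2.02) of 3.8 CPM or below. The hypoxia response core, ACGTG or GCGTG on either strand, was found in 16 of 19 promoters of those that passed (84.2%) and 18 of 25 of the list (72.0%), against 58.9% of promoters of genes tested. It was also found in 13 of 13 promoters of the tRNA synthetases.

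**Figure D4:**
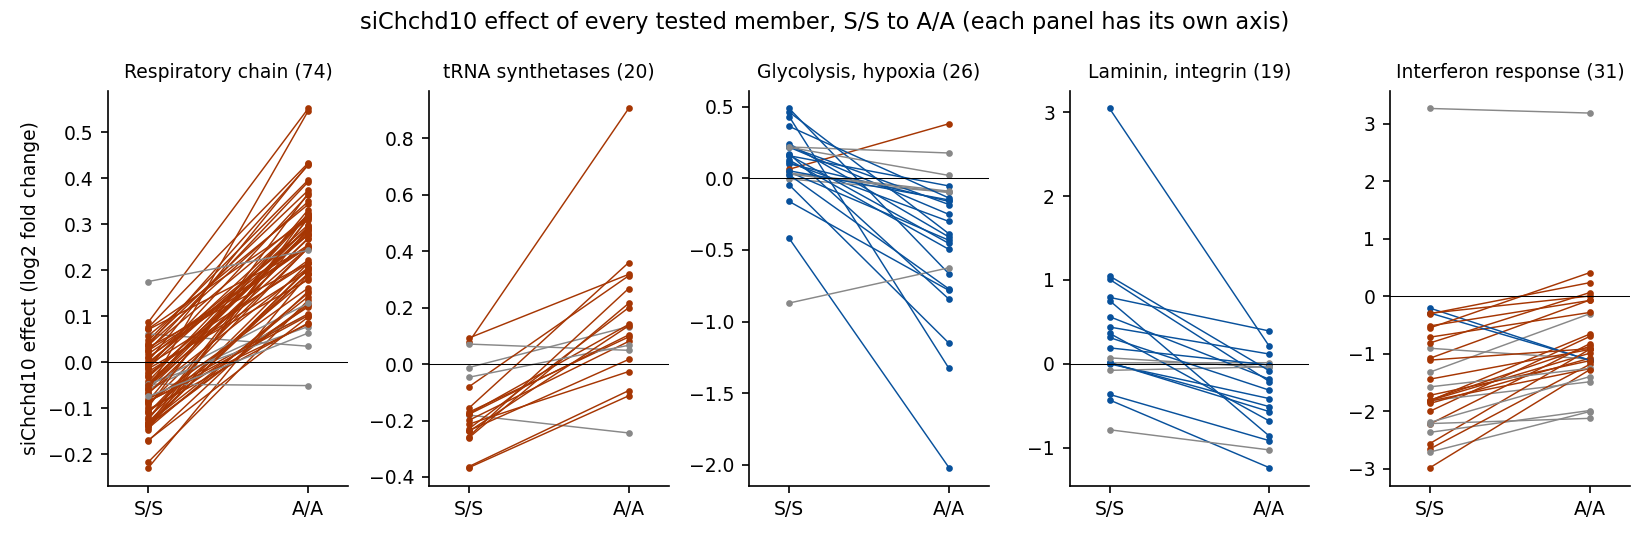
siChchd10 effect (log2 fold change) of every tested member of 5 lists, joined from S/S to A/A cells; red-brown lines have a higher and blue lines a lower interaction past the threshold, and grey lines did not pass. In the respiratory chain panel 67 of 74 lines rise past the threshold, and in the glycolysis and hypoxia panel 19 of 26 fall past it. The interferon lines have a median of -1.72 in S/S cells, with Mx1 far above 0.

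Interferon response genes, which defend against viruses, were lower after siChchd10 by their median in both genotypes. Of 31 tested, 20 had a higher and 2 a lower interaction, and 14 fell in both genotypes with the larger fall in S/S (list medians -1.72 in S/S and -0.92 in A/A). Ifit3, an antiviral effector, measured 9.40, 10.6, 9.22 and 10.9 CPM in S/S siControl, against 2.65, 2.65, 2.57 and 2.17 CPM in S/S siChchd10. Ifit3 in A/A cells was at 7.26, 7.33, 7.13 and 5.81 CPM and 3.98, 4.48, 4.38 and 4.17 CPM. Both genotypes lost Ifit3 without overlap, and the S/S cells, which started higher, ended lower. Its effects were -2.0 and -0.70 (interaction 1.30, SE 0.135, adjusted p = 1.96e-08). Oas3, an RNA sensor enzyme, fell by 2.65 and 1.18, and Xaf1 by 2.22 and 0.82. Usp18, a brake on interferon signals, fell in S/S and rose in A/A (-0.30 and 0.24), although without A/A siChchd10 2 the A/A rise of Usp18 did not pass. The exceptions were Stat2, a transcription factor of interferon signals, which fell more in A/A (-0.20 and -1.11, interaction -0.91, adjusted p = 4.93e-10), and Ifi27l2a, which fell in A/A alone (-0.29 and -1.11). Mx1 was the one member that rose in both (3.27 and 3.19), and its interaction did not pass.

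Promoters of Ifit1 and Ifit3 are shown because each held the interferon-stimulated response element. The letters searched were GAAA, any pair of bases and GAAA again, on either strand. In these windows they read on the opposite strand and are in capitals. The windows are from the same RefSeq table, Ifit1 at chr19:34640639-34640938 and Ifit3 at chr19:34583279-34583578, both on the plus strand. The start used for Ifit3 lies 410 bases from the edge of the annotated gene, so its window is within that gene.
Ifit1: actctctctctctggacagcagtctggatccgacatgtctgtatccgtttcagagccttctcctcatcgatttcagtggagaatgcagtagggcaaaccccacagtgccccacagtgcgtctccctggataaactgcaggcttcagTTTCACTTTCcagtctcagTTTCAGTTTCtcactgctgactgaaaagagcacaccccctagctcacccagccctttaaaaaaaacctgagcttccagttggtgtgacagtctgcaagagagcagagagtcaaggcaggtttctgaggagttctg
Ifit3: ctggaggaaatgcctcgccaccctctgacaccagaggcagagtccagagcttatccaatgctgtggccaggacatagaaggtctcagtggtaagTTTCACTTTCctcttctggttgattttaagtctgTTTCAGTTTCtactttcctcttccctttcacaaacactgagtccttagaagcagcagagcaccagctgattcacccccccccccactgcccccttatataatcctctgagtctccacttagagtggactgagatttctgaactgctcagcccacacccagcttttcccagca
Both windows held the letters at 2 places. They occurred in 11 of 17 promoters of the interferon genes that passed the interaction (64.7%) and in 14 of the 22 matched for the list (63.6%), against 2.93% of promoters of genes tested and 3.49% of all promoters in the table. Ifit1 fell by 1.81 in S/S and by 0.99 in A/A cells. Stat2, the strongest member in the other direction, held the letters as well.

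Laminin and integrin genes, which make and bind the basement membrane, had a lower interaction in 15 of 19 and a higher one in none (14 lower without A/A siControl 1). All 7 tested laminin chains were lower, and 8 of 12 integrin subunits. Itgb4, an integrin of hemidesmosomes (1.01 and -0.21), Lama5 (0.36 and -0.68) and Lamc1 (0.31 and -0.32) rose in S/S and fell in A/A cells. Lamb3 (1.05 and -0.084) rose in S/S alone, and Itga5, the fibronectin receptor chain, fell more in A/A (-0.43 and -1.24). Itgb4 measured 57.5, 72.2, 69.3 and 68.2 CPM and 139, 139, 127 and 132 CPM in S/S and 102, 117, 120 and 120.5 CPM and 104, 105, 103 and 84.8 CPM in A/A cells. Its S/S groups were well apart and its A/A groups overlapped, and the A/A fall did not pass without A/A siControl 2, 3 or 4 or A/A siChchd10 4. Members of the EGF receptor family and its ligands had 9 lower and none higher of 12, with Egfr and Erbb3, a partner receptor (0.39 and -0.18), in opposite directions. The A/A fall of Erbb3 did not pass without A/A siControl 2. Areg, another ligand, fell more in A/A (-0.42 and -1.19). Mesenchymal genes had 9 lower and none higher of 17, among them Col1a1, the repressor gene Snai1 (-0.10 and -0.82), the growth factor gene Tgfb2 (-0.94 and -1.47) and the filament gene Vim (-0.28 and -0.61). Fibroblast markers, which include Col1a1, summed to 2.58 to 2.89 CPM in A/A siChchd10, the lowest of the groups. Most of that sum was Col1a1, at 2.25, 2.06, 2.32 and 2.29 CPM, against 4.9, 4.41, 4.9 and 5.16 CPM in A/A siControl. The part of fibroblasts in the mesenchymal result was not tested.

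Lineage genes split by state. Of 20 transitional alveolar markers 15 had a lower and 3 a higher interaction (13 and 3 without A/A siControl 1). Slc4a11, described above, is one of the lower ones. The keratin gene Krt7 (1.03 and 0.096) rose in S/S alone, S100a6, a calcium-binding protein gene (0.075 and -0.39), fell in A/A alone, and Clu, a secreted chaperone, rose in A/A alone (0.064 and 0.79). Of 14 alveolar type 2 markers 8 were higher and 1 lower, and over all 16 listed markers the summed level was 677 to 742 CPM in A/A siControl and 1620 to 1900 CPM in A/A siChchd10, against 286 to 312 and 318 to 365 CPM in S/S. Sftpa1, a surfactant protein gene, measured 0.719, 0.632, 0.695 and 0.643 CPM in A/A siControl and 21.2, 23.8, 18.6 and 17 CPM in A/A siChchd10, and 0.283 CPM or below in every S/S library. The A/A effect was 4.90 and the interaction 4.46 (SE 0.521, adjusted p = 1.65e-07). Sftpc rose from 0.0567, 0.0988, 0.102 and 0.107 CPM to 3.78, 4.23, 3.66 and 3.55 CPM in A/A cells, and its interaction (4.63) did not pass without S/S siControl 4. Etv5, a factor of type 2 identity, fell by 0.34 in S/S and rose by 0.56 in A/A, whereas Muc1, a surface mucin, rose more in S/S (1.37 and 0.54). 

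Of 15 alveolar type 1 markers 3 were higher and 4 lower, with Ager, a receptor gene of type 1 cells (-0.11 and 0.63), at one end and Cav1, the caveola protein (-0.84 and -1.60), at the other. Of 20 liver-type plasma protein genes 12 were higher and 1 lower, 10 of them by rises in both genotypes that were larger in A/A. Alb (0.40 and 1.73), Apoa1 (1.32 and 2.75) and Apob (1.26 and 2.68) were of this kind. Of 17 gut endoderm markers 3 were higher and 6 lower. Cdh17, an intestinal cadherin, rose more in S/S (1.19 and 0.33), and Foxa1, an endoderm transcription factor, rose more in A/A (0.18 and 0.43). Gkn2, a stomach secretory gene, rose from 0.303, 0.296, 0.184 and 0.171 CPM to 5.70, 6.81, 5.75 and 4.69 CPM in A/A cells and was at 0.0997 CPM or below in S/S (interaction 4.23, or 4.94 without S/S siChchd10 2). Of 29 epithelial junction genes 15 were lower and 4 higher, a count of lower genes that went to 12 without A/A siControl 1. The desmosome gene Dsg2 rose in S/S alone (0.54 and -0.032), and the tight junction gene Ocln rose more in S/S (0.49 and 0.17). Prss8, a membrane-anchored protease, went the other way, with rises of 1.51 in S/S and 3.44 in A/A (adjusted p = 2.79e-09). None of 5 airway markers passed, 2 of 8 basal and squamous markers were lower (Sprr1a and Sprr2a3), and leukocyte, fibroblast and endothelial markers had 1 lower member each, of 5, 4 and 6 tested (Cd68, Col1a1 and Plvap). The call of Plvap was lost in 5 of the 16 fits without 1 library, that of Cd68 in 9 and that of Sprr1a in 10.

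Cell cycle lists differed by phase. Of 26 S phase genes 19 were higher and 1 lower, 16 of them by a rise in A/A alone. Mcm5, part of the replicative helicase, measured 189.6, 172, 181 and 178 CPM in A/A siControl and 232, 246, 247 and 232 CPM in A/A siChchd10, against 227, 194, 225 and 236 CPM and 182, 197, 211 and 223 CPM in S/S cells. The A/A groups did not overlap and the S/S groups did, and the interaction of Mcm5 was 0.53 (SE 0.0803, adjusted p = 1.49e-05). The S/S fall of Mcm5 passed without S/S siControl 2 or S/S siChchd10 4. Gins1, a helicase partner, was the lower one (0.10 and -0.29). Of 26 G2/M genes 8 were lower and none higher, including Ccnb2, a mitotic cyclin (-0.018 and -0.33), and the phosphatase gene Cdc25c (0.016 and -0.41). Without A/A siControl 1 the count of lower G2/M genes was 4, near the share of lower genes among all genes. Of 18 replication-dependent histone genes 5 were higher (H4c4, H4c8, H2ac8, H1f4 and H2bc4) and none lower, although H1f4 lost its call in 10 and H2bc4 in 8 of the 16 fits without 1 library. Of these 18 genes only 1 had a mean of at least 1 CPM in each genotype, and with upper quartile scaling 3 were higher. Of 20 p53 targets 11 were lower and 2 higher, Perp and the repair gene Ddb2 (0.077 and -0.88) the lowest and the death receptor gene Fas (0.38 and 1.22) the highest. The S/S rise of Fas passed without S/S siControl 1.

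Lipid and redox genes followed. Of 25 cholesterol synthesis genes 17 were lower and none higher. The mevalonate pathway enzyme gene Pmvk (0.13 and -0.42), Lss, which closes the sterol rings (0.090 and -0.28), and Stard4, a cholesterol carrier (-0.065 and -0.42), fell in A/A alone. The S/S rise of Pmvk passed without A/A siControl 1 or 4. Of 15 fatty acid synthesis genes 8 were lower and 1 higher. Scd1, which puts a double bond into fatty acids, moved in opposite directions (0.27 and -0.29), and Mlxipl, a glucose-responsive factor, rose in S/S alone (0.67 and -0.12). Fatty acid oxidation had 9 higher and none lower of 19, such as the carnitine carrier Slc25a20 (0.096 and 0.55) and Hadha (0.19 and 0.53). Of 24 NRF2 targets 15 were lower and 3 higher. Beside Nqo1, Tkt of the pentose phosphate route fell in A/A alone (0.050 and -0.24). The glutathione transferase gene Gsta1 rose more in S/S (1.51 and 0.57), and Gstm1 rose in A/A alone (0.018 and 0.73). Of 28 autophagy and lysosome genes 18 were higher and 2 lower. Ctsh, a lysosomal protease, measured 29.8, 26.8, 26.9 and 28.9 CPM and 46.3, 49.0, 41.2 and 49.9 CPM in S/S and 91.0, 88.3, 89.5 and 82.3 CPM and 382, 444, 419 and 398 CPM in A/A. All knockdown libraries exceeded their controls, by 0.73 in S/S and 2.23 in A/A (adjusted p = 9.80e-14). Hexa, a lysosomal hydrolase (-0.022 and 0.91), and the membrane proteins Lamp1 (0.053 and 0.66) and Lamp2 (-0.00070 and 0.51) rose in A/A alone. Tfeb, the factor that switches on lysosomal genes, moved in opposite directions, up in S/S (0.20) and down in A/A (-0.38).

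Remaining immune and signalling lists were mixed. Of 24 NF-kB targets and chemokines 7 were higher and 6 lower, with Ccl20 rising more in A/A (0.60 and 1.74) and Ccl5 falling more in S/S (-2.50 and -1.37). Of 14 MHC class I genes 5 were higher and 2 lower. Nlrc5, the transactivator of these genes, fell more in A/A (-1.25 and -2.18), while H2-D1, a classical chain, rose in A/A alone (-0.059 and 0.37). Of 14 complement genes 5 were higher and none lower, among them Cfi, a protease that stops complement (0.059 and 1.39). Of 21 Wnt pathway genes 3 were higher and 6 lower. Fzd4, a Wnt receptor, fell in S/S alone (-0.37 and -0.014).

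Leaving out A/A siControl 1 ended the call of 413 genes, 287 of them with an A/A siControl level of 50% to 200% of S/S siControl, the range that holds most genes. As a share of the calls, the loss was largest in genes that A/A cells express at a small share of the S/S level. Of 604 genes with an A/A siControl level under 10% of S/S siControl, 127 passed, and 82 of these (64.6%) passed without that library. Their median interaction over all 604 went from -0.46 to 0.16. In the other ranges of that share 90.7% to 94.7% of the passing genes still passed. The cytoskeletal gene Flnc measured 12.9, 3.14, 0.695 and 1.03 CPM in A/A siControl and 0.613, 1.03, 0.873 and 0.499 CPM in A/A siChchd10, and 199 to 244 CPM in S/S. Its interaction went from -2.79 (adjusted p = 0.0348) to -1.31 (adjusted p = 0.0562). Basp1, a membrane protein gene, measured 26.3, 6.70, 5.0 and 5.70 CPM and 2.21, 2.29, 2.85 and 1.89 CPM in the same groups, and its interaction went from -2.40 to -1.45 and still passed. The complement gene C3 moved the other way, from 1.73 to 2.32. In both Flnc and Basp1 the A/A siControl 1 value was the highest of its group by far. Flnc did not pass in 9 of the 16 fits without 1 library.

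Of 140 named genes that passed the interaction, 133 passed without A/A siControl 1. The other 7 were Flnc, Ms4a4d, Serpina1b, Sprr1a, Esrp1, Itgb6 and Cd68. Esrp1, an epithelial splicing factor, had 0.208 CPM in A/A siControl 1 and 0 in the other A/A libraries, so its opposite movement rested on that library. The interaction of Itgb6, an integrin chain, went from -1.62 to -0.65, that of Serpina1b from -3.04 to -0.94 and that of Ms4a4d from -3.63 to -1.40. Cldn4, a claudin, kept its call with an interaction that went from -2.87 to -1.95, and Hdx from -6.46 to -3.99, although Hdx did not pass in 13 of the 16 fits without 1 library. Hdx had no count in A/A siChchd10 and 40 counts over the A/A siControl libraries, at least 15-fold lower when 3 counts over the group are taken as the floor. Most of those 40 counts were in A/A siControl 1, at 0.662 CPM, against 0.0857 CPM or below in the rest of that group. The 15-fold minimum of Hdx thus rests on A/A siControl 1. Apoa4, a lipoprotein gene, had the reverse pattern, no count in A/A siControl and 253 counts over A/A siChchd10, at least 75.1-fold higher by the same floor, and its interaction did not pass without S/S siControl 2. Wnt11, a Wnt ligand, had no count in A/A siChchd10 and 11 counts over A/A siControl, at least 4.12-fold lower by that floor, while it rose by 0.90 in S/S cells. With A/A siControl 1 and 2 both left out, 5609 genes passed, 126 of the 140 named ones among them.

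**Figure D5:**
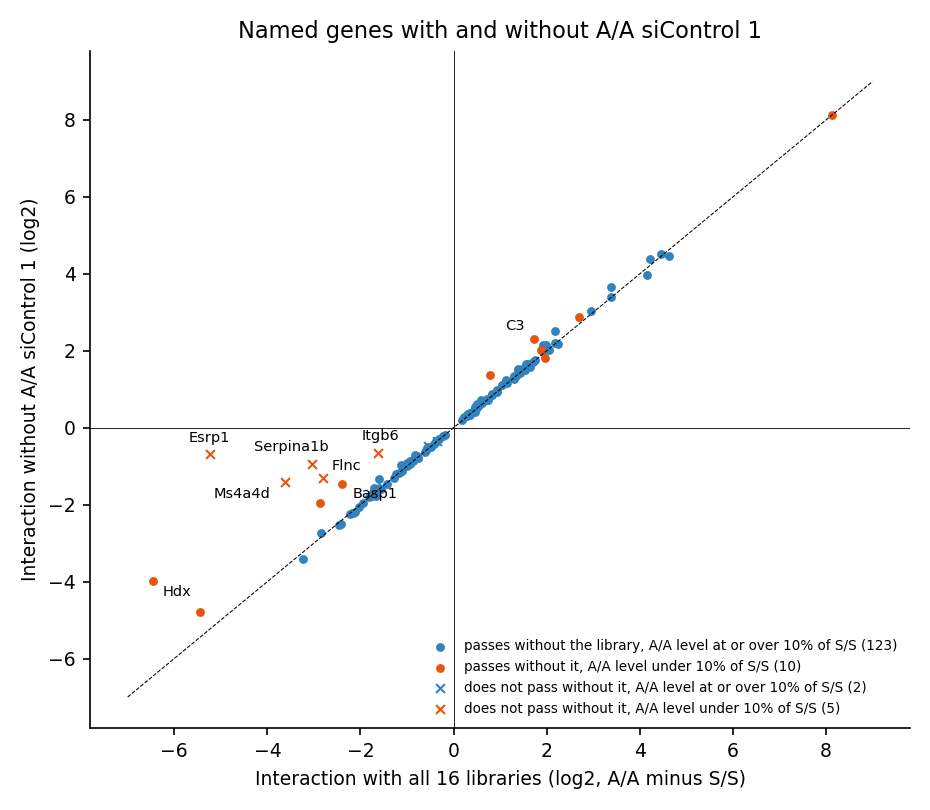
Interaction (log2, A/A minus S/S) of the 140 named genes that passed, with all 16 libraries on the horizontal axis and without A/A siControl 1 on the vertical axis; orange marks genes whose A/A siControl level was under 10% of S/S siControl, crosses mark genes that did not pass without that library, and the dashed line marks equality. Of 15 orange genes 10 still passed, against 123 of 125 blue ones, and the genes off the line include Esrp1, Hdx, Ms4a4d, Serpina1b, Flnc and Itgb6.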

How the data were processed

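Of the 24 libraries of the study, the 16 of the siRNA experiment were used, 4 for each of 4 groups taken from the labels; the Atf4 shRNA libraries were not analysed here. Polyadenylated RNA was sequenced from stranded libraries, per the labels' protocols. The authors deposited raw read counts per gene for 39310 genes with no normalization in the values. The genome build mm10 and DESeq2 1.24.0 are named in the submitters' processing notes; which aligner, counter, strand setting and gene annotation were used is not given in the sources used here. Genes that overlap or have near-identical copies may therefore share reads.

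From the counts, 18138 genes passed filterByExpr and held 99.96% of all counts. They were scaled by TMM and fitted with edgeR 4.0.16 (R 4.3.3) by the robust quasi-likelihood test, with 1 term per group over all 16 libraries and Benjamini-Hochberg adjustment over all genes tested. The interaction is the siChchd10 effect in A/A minus that in S/S. CPM values are TMM-scaled. Tables and figures were made with Python 3.11.15, pandas 2.3.3 and matplotlib 3.10.9. The interaction script was tested on simulated data before use.

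The members and the gene lists were chosen with earlier results of these data known. The text names Chchd10, Atf4 and Eif2s1, the 4 genes with the largest interaction of each kind and direction among those expressed in both genotypes (at least 1 CPM in each), up to 2 genes per list and direction, and, for effects in S/S alone and in A/A alone, the 3 largest interactions among genes not expressed in both genotypes, which came to 141 genes; a few others that this rule gives are not reported here. Other list members were chosen after their values were seen. Promoters are from the RefSeq table of GRCm38.p6. Alternatives were other scalings and filters, DESeq2 1.42.0, limma 3.58.1 with voom, a minimum fold of 1.5, each genotype fitted by itself, a replicate block and each library left out in turn. Leaving out A/A siControl 1 and 2 together was chosen after seeing the data.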

Additional observations from a re-analysis of the deposited data

Results flagged for a closer look

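The siChchd10 effect differed between the genotypes in 6461 genes by the test of the difference itself, the interaction, as described above.

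Among 30 genes whose levels by library are given, in full or in part, a Dixon test at the 95% level set 1 library apart from the other 3 of its group in 9 of 120 groups, and chance gives about 1 in 20. High values were those of Timp3 in S/S siControl 1 (7.16 CPM, against 2.2 to 2.8 CPM) and Basp1 in A/A siControl 1 (26.3 CPM, against 5.0 to 6.7 CPM). The other 7 were low values. Egln3 was at 50.3 CPM in S/S siControl 2 and at 41.8 CPM in A/A siControl 4. Ifit3 was at 2.17 CPM in S/S siChchd10 4 and at 5.81 CPM in A/A siControl 4. Itgb4 was at 102 CPM in A/A siControl 1 and at 84.8 CPM in A/A siChchd10 4, and Sftpc was at 0.0567 CPM in A/A siControl 1.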

How the results depend on the processing

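The count of genes with a different siChchd10 effect stayed between 5609 and 6718 under the other scalings, filters and tools and without A/A siControl 1 and 2, and under these alternatives no gene that still passed had changed sign. With a minimum fold of 1.5 the counts moved: 600 genes passed the interaction (202 higher and 398 lower), 381 passed in S/S and 1425 in A/A. At that minimum 1 gene moved in opposite directions (Slc4a11), 57 in S/S alone and 407 in A/A alone, and 4 changed more in S/S (Cdhr2, Glod5, Lgals4 and Phgr1) and 11 more in A/A. The share of higher calls was 46.8% and went to 33.7% with the minimum fold, 43.9% with upper quartile scaling and 50.6% with RLE size factors. Leaving out 1 library gave 5712 to 6894 genes (2612 to 3494 higher, 2974 to 3406 lower), 4279 to 5171 in S/S and 8935 to 10003 in A/A. The same fits gave 487 to 809 genes of opposite movement, 640 to 882 in S/S alone, 3277 to 4136 in A/A alone, 139 to 211 larger in S/S and 611 to 809 larger in A/A.

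Of 141 named genes, 102 stayed of the same kind whichever library was left out and 19 no longer passed in at least 1 fit. Without A/A siControl 1 and 2 the interaction of Ms4a4d turned to 0.562, not past the threshold. With a replicate block 6100 genes passed, 6063 of the 6461 among them. The replicate numbers did not pair the samples: the correlation of same-numbered deviations was -0.336 to 0.453 over 24 pairs of libraries, over 0.1 in 5, and 1 of 16 libraries correlated best with its own number. Depth limits genes near 0 in 1 genotype, whose folds rest on few counts.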

Other observations

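Of the 18138 genes tested, 10990 had siControl levels within 2-fold between the genotypes and a mean of at least 1 CPM in each genotype. Among the 6461 genes with a different siChchd10 effect, 4832 were of that kind. The mean of at least 1 CPM in each genotype was met by 12339 of the genes tested and by 5590 of the 6461. Near siControl levels were thus about as common among all such genes as among those that passed the interaction. Of the 396 genes that rose in S/S and fell in A/A, 291 met both conditions, and of the 270 that went the reverse way, 212 did. For falls larger in S/S cells the number was 50 of 76, and for rises larger in S/S cells it was 59 of 112. Where the A/A siControl level was over 200% of the S/S level, 504 genes had a lower and 207 a higher interaction, with a median of -0.27 over the 1978 genes tested. In the range of 50% to 200% the counts were 2568 lower and 2591 higher. The same siControl levels enter both these ranges and the interaction, so the counts by range are not independent of how the ranges were made. These ranges also include genes under 1 CPM in a genotype.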
